A study of Mus musculus with 10 samples.

Results

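The genes described here encode the receptors through which the liver senses foreign compounds, their obligate partners and an enzyme of the same detoxification system. They were chosen by name, as the genes with the platform symbols Nr1i2, Nr1i3, Ahr, Arnt, Rxra, Por and Ephx1. Of these 7 genes, 6 were found among the 19935 genes measured, each through a single probe set; Por was not analysed here. Total RNA from livers of 12-week-old mice had been hybridised to whole-transcript arrays, 1 array per liver. The design held 5 mice lacking nucleomethylin (NML-KO) and 5 wild-type mice (WT), and the sources used here give neither the strain, the sex nor the part of the gene removed. A further grouping followed from the rule that chose the genes: livers with a log2 intensity of Dbp above 8 (Dbp-high: NML-KO 1, 2 and 3 with WT 1 and 2) were set against the others (Dbp-low: NML-KO 4 and 5 with WT 3, 4 and 5). That grouping is read from the arrays and is not a label of the study. Nothing in the labels says whether Dbp-high livers were taken at another time of day.

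Nr1i3 encodes CAR and Nr1i2 encodes PXR, related nuclear receptors that bind DNA as partners of RXRA, the product of Rxra, and switch on cytochromes P450, conjugating enzymes and transporters. AHR, the product of Ahr, is held in the cytoplasm by chaperones until it binds a planar aromatic ligand, then pairs with ARNT in the nucleus. Ephx1 encodes microsomal epoxide hydrolase, which opens the reactive epoxides that cytochromes P450 can form. Dbp, Tef and Hlf encode the PAR bZIP factors, output regulators of the circadian clock, and in mice lacking all of them hepatic Nr1i3 expression is known to be reduced.

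The sequences upstream of Nr1i3 and Nr1i2 are shown because these related receptors differed widely in how much they varied between livers. The wider range of Nr1i3 was set by NML-KO 4 and WT 1. The sequences are the 250 bases before the RefSeq start (GRCm38.p6), 5′ to 3′ on the gene's strand, in lower case with any E-box or D-box in capitals. The E-box CACGTG is the element read by the CLOCK and BMAL1 pair. The D-boxes searched, TTATGTAA and TTACGTAA, are elements read by PAR bZIP factors, and both strands were searched.
Nr1i3, chr1:171213720-171213969, plus strand: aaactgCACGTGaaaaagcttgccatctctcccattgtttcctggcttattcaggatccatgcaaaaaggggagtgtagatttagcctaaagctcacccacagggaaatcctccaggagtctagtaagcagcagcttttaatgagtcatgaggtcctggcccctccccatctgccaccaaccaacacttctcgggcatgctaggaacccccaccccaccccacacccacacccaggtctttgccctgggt
Nr1i2, chr16:38294825-38295074, minus strand: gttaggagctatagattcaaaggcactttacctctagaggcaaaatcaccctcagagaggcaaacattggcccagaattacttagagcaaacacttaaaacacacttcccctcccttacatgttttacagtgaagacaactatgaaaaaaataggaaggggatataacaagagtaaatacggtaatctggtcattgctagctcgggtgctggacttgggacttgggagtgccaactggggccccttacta

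The Nr1i3 window held 1 E-box, 244 bases before the start, and the Nr1i2 window held none. Among all 32851 RefSeq windows of this length, 6.02% held an E-box and 0.931% held either D-box. No D-box lay in the windows of Nr1i3, Nr1i2, Rxra, Arnt or Ephx1. The AHR core GCGTG, present in 28.2% of all windows, was found in that of Arnt at 29 bases before the start, and in none of the other 4 measured genes with a window. That of Por held 3. The E-box and the AHR core share the letters CGTG. These letters describe the windows and say nothing of what binds there.

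Rrp8, which encodes nucleomethylin, did not overlap between the genotypes. Its log2 intensity averaged 6.87 ± 0.22 in NML-KO livers and 7.75 ± 0.11 in WT livers (SD, n = 5 each), with an exact two-sided permutation p of 0.0079, the smallest this design allows. Its limma adjusted p was 0.109, or 0.0171 without NML-KO 4. No gene passed an adjusted p of 0.05 between genotypes in limma (0 of 19935, 0%), and 539 genes (2.70%) had a p below that value before adjustment, 1.05% in the higher and 1.66% in the lower direction. With the Dbp level in the model that share was 4.36%, again with no gene past the threshold. Between Dbp-high and Dbp-low livers, with genotype in the model, 2573 genes (12.9%) passed, 980 higher (4.92%) and 1593 lower (7.99%). After quantile normalization the split was 1374 higher and 1383 lower. Because the grouping was made from these arrays, its p-values describe these livers and test no designed factor. Alb, of serum albumin, measured 14.44 on average, and the 7 measured hepatocyte markers averaged 7.21 to 7.33 above the mean of all genes in NML-KO livers and 7.01 to 7.39 in WT livers on the log2 scale. WT 2 stood apart in its fat tissue markers, whose mean was 2.03, against 0.67 to 1.05 in the other 9 livers.

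Between genotypes, none of the 6 genes passed the threshold, none had an unadjusted p below 0.05, and NML-KO and WT values overlapped for each, where 0.406% of all genes had no overlap. Nr1i3 had the widest difference, with NML-KO livers at 74.9% of the WT level, and that value rested on NML-KO 4 and WT 1. Ephx1 was at 86.4% of the WT level, and the other 4 differed by 1.08-fold or less. The median log2 difference of the 6 genes was -0.047, beside -0.0065 over all genes.

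Nr1i3 (CAR, probe set 10351533) measured 10.27, 10.05, 9.79, 8.67 and 9.76 on the log2 scale in NML-KO 1 to 5. In WT 1 to 5 it measured 10.89, 9.90, 9.83, 9.96 and 10.04. The other 8 livers lay close together, while NML-KO 4 was far below them and WT 1 far above. The mean was 9.71 ± 0.62 in NML-KO livers and 10.13 ± 0.43 in WT livers (SD, n = 5 each), a log2 difference of -0.42 (95% interval -1.08 to 0.25; limma adjusted p = 0.999; exact permutation p = 0.333). Without NML-KO 4 the difference was -0.16, without WT 1 it was -0.23, and without both livers, an alternative added after seeing the data, it was 0.034. With the Dbp level in the model it was -0.54 (unadjusted p = 0.0466, adjusted p = 0.992 by limma), or -0.29 when NML-KO 4 was also left out. Between livers of the same genotype and Dbp level, the SD of Nr1i3 was 0.45, wider than that of 98.6% of genes.

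Nr1i2 (PXR, probe set 10439411) measured 9.32, 9.24, 9.07, 9.29 and 9.11 in NML-KO 1 to 5. In WT 1 to 5 it measured 9.22, 9.62, 9.06, 9.12 and 9.37. WT 2 was the highest of all, and the NML-KO livers lay inside the range of the WT livers. Its mean was 9.21 ± 0.11 in NML-KO livers and 9.28 ± 0.23 in WT livers (SD, n = 5 each), a log2 difference of -0.071 (95% interval -0.31 to 0.16). The range of Nr1i2 over the 10 livers was 0.56, against 2.22 for Nr1i3.

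Rxra, the shared partner of both receptors, measured 10.54, 10.72, 10.67, 10.63 and 10.49 in NML-KO 1 to 5. In WT 1 to 5 it measured 10.92, 10.72, 10.47, 10.25 and 10.51 (probe set 10470446). The NML-KO livers lay inside the spread of the WT livers, in which the Dbp-high pair was above the other 3. The genotype means were 10.61 ± 0.096 in NML-KO livers and 10.57 ± 0.25 in WT livers (SD, n = 5 each), a log2 difference of 0.037 (95% interval -0.22 to 0.29).

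Ahr (probe set 10400006) measured 9.50, 9.60, 9.44, 9.18 and 9.38 in NML-KO 1 to 5. In WT 1 to 5 it measured 9.45, 9.14, 9.35, 9.56 and 9.03, so that low and high livers occurred in both genotypes. Its log2 difference was 0.11 (95% interval -0.14 to 0.36). Arnt, its partner (probe set 10494238), measured 9.38, 9.14, 9.69, 9.51 and 9.48 in NML-KO 1 to 5 and 9.43, 9.66, 9.29, 9.48 and 9.46 in WT 1 to 5. Its lowest and highest livers were both NML-KO, and the log2 difference was -0.022 (95% interval -0.25 to 0.20). For both subunits of the AHR complex the genotypes overlapped over most of their range.

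Ephx1 (probe set 10360684) measured 11.33, 11.22, 11.31, 10.81 and 11.34 in NML-KO 1 to 5. In WT 1 to 5 it measured 11.38, 11.51, 11.11, 11.39 and 11.67. NML-KO 4 was the lowest liver, as it was for Nr1i3. The mean was 11.20 ± 0.22 in NML-KO livers and 11.41 ± 0.20 in WT livers (SD, n = 5 each), a log2 difference of -0.21 (95% interval -0.49 to 0.066; exact permutation p = 0.175). Without NML-KO 4 it was -0.11.

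**Figure D1:**
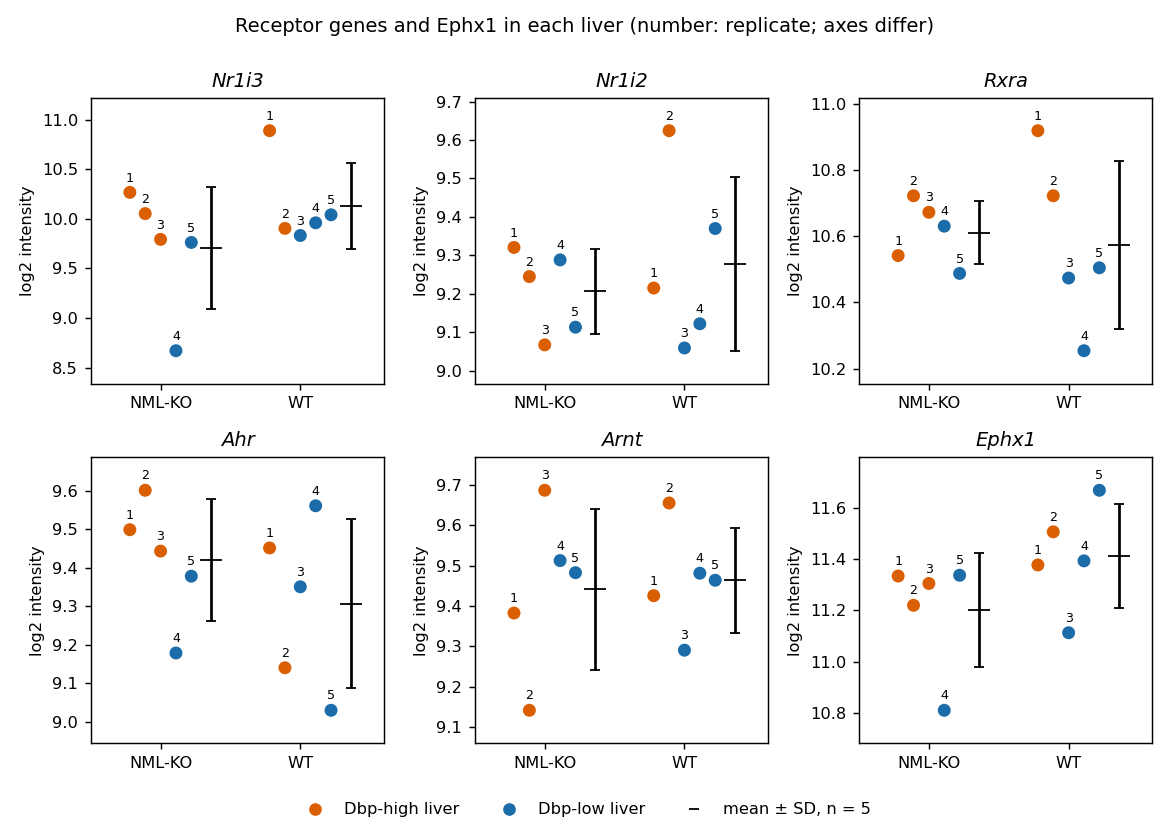
Log2 intensity (vertical axes, which differ in scale) of the receptor genes and Ephx1 in each NML-KO liver (left in each panel) and WT liver (right), coloured by Dbp level and numbered by replicate, with the mean and SD of 5 livers. Nr1i3 spans 2.22 log2 units, set by NML-KO 4 at 8.67 and WT 1 at 10.89, while Nr1i2, Rxra, Ahr and Arnt span 0.55 to 0.67.

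Between Dbp-high and Dbp-low livers, each of the 6 genes had a difference above 0 and none passed the threshold. Nr1i3 (1.55-fold) and Rxra (1.19-fold) had an unadjusted p below 0.05. That is 2 of 6 genes, both higher in Dbp-high livers, where 26.9% of all genes did so (12.5% higher and 14.4% lower), and 0 of 6 with no overlap between the sets, where 12.2% of all genes had none. The median log2 difference was 0.13, beside 0.024 over all genes.

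Nr1i3 averaged 10.18 ± 0.43 in Dbp-high livers and 9.65 ± 0.56 in Dbp-low livers (SD, n = 5 each). With genotype in the model the log2 difference was 0.64 (SE 0.24; unadjusted p = 0.0241, adjusted p = 0.119 by limma). Of the livers that stood apart, WT 1 was Dbp-high and NML-KO 4 was Dbp-low. Without both the difference was 0.12 (adjusted p = 0.700 by limma). Leaving out WT 2, the liver with the high fat tissue markers, gave 0.87 and an adjusted p of 0.0301 by limma; the adjusted p over all alternatives ran from 0.0301 to 0.831.

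Rxra averaged 10.72 ± 0.14 in Dbp-high livers and 10.47 ± 0.14 in Dbp-low livers (SD, n = 5 each). The log2 difference was 0.25 (SE 0.088; unadjusted p = 0.0187, adjusted p = 0.10 by limma), and 0.23 without NML-KO 4 and WT 1. Quantile normalization gave 0.36 and an adjusted p of 0.0359 by limma, within a range of 0.0359 to 0.873 over all alternatives. Within NML-KO livers the difference was 0.086 and within WT livers 0.41.

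Nr1i2 differed by 0.12, Ephx1 by 0.13, Ahr by 0.11 and Arnt by 0.017 between Dbp-high and Dbp-low livers on the log2 scale. Their 95% intervals all included 0, reaching from -0.22 to 0.41 across the 4 genes. Single livers moved these values: Ephx1 was at 0.011 without NML-KO 4 and 0.21 without NML-KO 5, Nr1i2 at 0.018 without WT 2, and Ahr at 0.041 without NML-KO 4 and 0.20 without WT 2. Leaving out each liver in turn gave at most 0.18 for Nr1i2, and -0.053 to 0.087 for Arnt. Arnt was 9.14 in NML-KO 2 and 9.69 in NML-KO 3, both Dbp-high livers, so that the Dbp-low livers, at 9.29 to 9.51, lay between them.

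**Figure D2:**
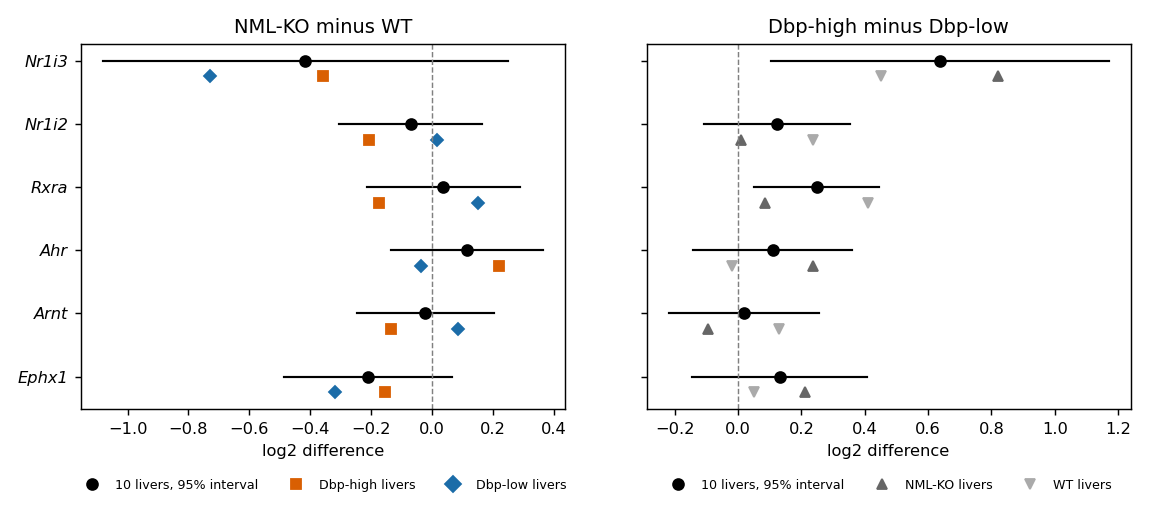
Log2 difference (horizontal axes) of each gene for NML-KO minus WT (left) and Dbp-high minus Dbp-low with genotype in the model (right). Circles with lines are all 10 livers with limma's 95% interval, and smaller symbols are the differences within each subset of livers. Only the Nr1i3 and Rxra intervals on the right leave out 0, and neither gene passed after adjustment.

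The test of whether the genotype difference itself differed with Dbp level passed for none of the 6 genes, nor for any of the 19935 (0%; 1293 genes, or 6.49%, had an unadjusted p below 0.05 in limma, 2.65% above 0 and 3.84% below). Rxra came closest: its NML-KO minus WT difference was -0.18 in Dbp-high livers and 0.15 in Dbp-low livers (interaction unadjusted p = 0.0597, adjusted p = 0.765 by limma). For Nr1i3 the corresponding differences were -0.36 and -0.73 (adjusted p = 0.927 by limma), and the second of these was -0.18 without NML-KO 4. For Nr1i2 and Arnt the difference was below 0 in Dbp-high livers (-0.21 and -0.14) and above 0 in Dbp-low livers (0.017 and 0.086). Ahr ran the other way, at 0.22 and -0.035.

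In NML-KO 4, the liver lowest in Nr1i3 and Ephx1, the mean level of acute phase genes was far higher than in any other liver. These are the genes of plasma proteins that hepatocytes release during inflammation, and the list was drawn up after these values had been seen. The mean of its 20 measured genes stood 5.23 above that of all genes in NML-KO 4, against 2.88 to 3.91 in the other 9 livers. Next highest were NML-KO 5 (3.91) and WT 5 (3.79), where Ephx1, at 11.34 and 11.67, was the highest of its genotype. Nr1i3 measured 9.76 and 10.04 in these livers. Saa2, which encodes serum amyloid A, measured 13.03 in NML-KO 4 and 11.05 in NML-KO 5, while the other NML-KO livers lay between 5.33 and 6.64 and no WT liver was above 8.81. Macrophage markers were highest in NML-KO 4 too, with a mean of 2.45 against 1.05 to 2.15 elsewhere. WT 1, the liver highest in Nr1i3, had an acute phase mean of 3.02, like the other Dbp-high livers (2.88 to 3.16). The part of these genes in the Nr1i3 and Ephx1 values of NML-KO 4 was not tested.

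Well known targets of these receptors were looked up as textbook examples, outside the rule for named genes. Cyp2b10, the classic CAR target, was lowest in WT 1 at 5.32, where Nr1i3 was highest, and at 7.79 in NML-KO 4, where Nr1i3 was lowest. Other livers did not keep this opposite order. Cyp2b10 was at 7.86 in WT 2 and 7.73 in WT 4, where Nr1i3 was 9.90 and 9.96. Cyp2b10 was at 6.03 in NML-KO 5, where Nr1i3, at 9.76, was lowest after NML-KO 4. Across the livers Cyp2b10 ranged from 6.03 to 7.79 in NML-KO livers and from 5.32 to 7.86 in WT livers, with a log2 difference of -0.18 (adjusted p = 0.999 by limma). Cyp3a11, the classic PXR target, ranged from 13.06 to 13.47 in NML-KO livers and from 12.97 to 13.38 in WT livers. Cyp1a1, a gene strongly induced through AHR, lay between 4.72 and 5.03 in NML-KO livers and between 4.78 and 5.02 in WT livers. Its intensities, 26.3 to 32.8 before log2, were below every array median (lowest 62.5), so this narrow range says little of AHR activity. Cyp1a2, an AHR target that the liver expresses without inducer, ranged from 12.07 to 12.80 in NML-KO livers and from 11.95 to 12.81 in WT livers.

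**Figure D3:**
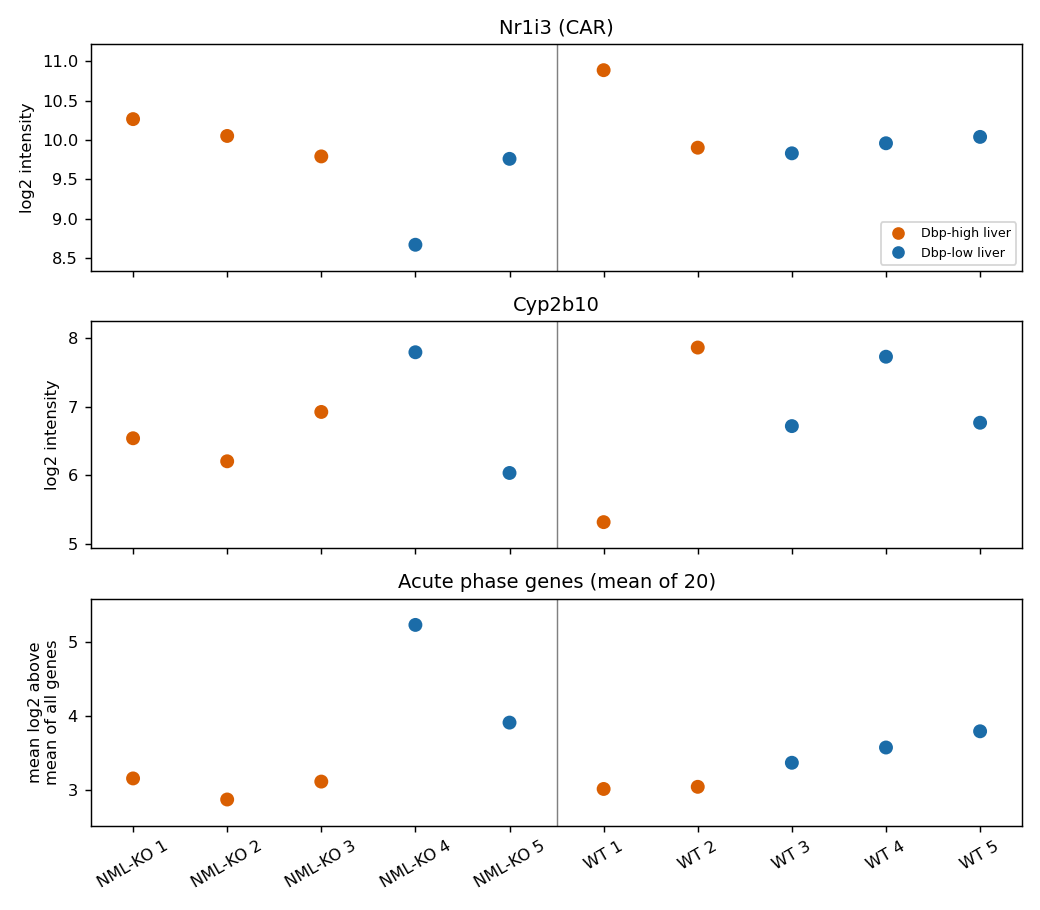
Log2 intensity of Nr1i3 (top) and Cyp2b10 (middle) and the mean of 20 acute phase genes above the mean of all genes (bottom, log2) in each liver, NML-KO on the left and WT on the right, coloured by Dbp level. NML-KO 4 has the lowest Nr1i3 (8.67) and the highest acute phase mean (5.23), and WT 1 has the highest Nr1i3 (10.89) and the lowest Cyp2b10 (5.32). Cyp2b10 is highest in WT 2 (7.86), where Nr1i3 is 9.90.

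Of the wider PXR and CAR target list, which had 47 entries, 38 different genes were measured. Ces2a was entered also under the name Ces6 and was counted once. Between genotypes 0 passed and 0 had an unadjusted p below 0.05 by limma, and the median log2 difference was 0.043. Aldh1a7, an aldehyde dehydrogenase gene, and Alas1, the first enzyme of haem synthesis, had the smallest p, with differences of 0.18 and 1.46 (adjusted p = 0.999 each by limma). The genotypes held unequal numbers of Dbp-high livers, and with the Dbp level in the model the Alas1 difference was 1.03, or 0.26 within Dbp-high and 1.79 within Dbp-low livers. Between the Dbp sets 8 passed (21.1%, beside 12.9% of all genes), 4 higher and 4 lower, and the list's median was 0.019. The count of 8 was 5 without NML-KO 5, and 2 within NML-KO livers alone. When dim genes, with a mean log2 intensity below 6, were left out, 2646 of 10810 genes passed, a larger share than 12.9%. The shares of this list and of the target, partner and acceptor lists below are therefore not read as an excess.

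The 4 that rose in Dbp-high livers were Alas1 (4.43-fold), the bile transporter genes Abcc2 (1.58-fold) and Abcb1a (1.35-fold), and Slco1a4 (2.01-fold), an uptake transporter gene. The 4 that fell were the cytochrome P450 genes Cyp2c55 (1.83-fold), Cyp3a13 (1.56-fold) and Cyp3a25 (1.40-fold), and the glutathione transferase gene Gstm2 (1.67-fold). Beyond the 2 genes of smallest p, genes past the threshold were added by name here and in the next lists once their values were known. Abcc2 (adjusted p = 0.000142 by limma), Alas1 (adjusted p = 0.00253 by limma) and all 4 genes that fell did not overlap between the sets, while Abcb1a and Slco1a4 did. Of the 38 measured genes, 2 higher and 4 lower had no overlap, where 12.2% of all genes had none. Transcripts that share close paralogs, as in the Cyp2c, Cyp3a and Gstm families, may be read by probes of more than 1 gene.

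AHR targets were measured for 11 of 15 genes, and 0 passed between genotypes. Tiparp, an ADP-ribosyltransferase gene that feeds back on AHR, and Slc46a3, a lysosomal transporter gene, had the smallest p there. Each had a difference of 0.19 and an adjusted p of 0.999 by limma. Between the Dbp sets 3 of 11 passed (27.3%, beside 12.9%): Tiparp fell (1.30-fold), and Fmo2 (1.69-fold) and Cyp1b1 (1.26-fold) rose. All 3 overlapped between the sets, and 1 passed when any of NML-KO 3, NML-KO 5, WT 1, WT 2, WT 3 or WT 5 was left out.

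Among partners and coregulators of the receptors, 21 of 25 genes were measured. Between genotypes 0 passed. Of all genes, 2.70% had an unadjusted p below 0.05 by limma, 1.66% in the lower direction. Here 2 of 21 had one, both lower in NML-KO livers. These were Dnajc7, a chaperone gene whose product holds CAR in the cytoplasm, at -0.26 (unadjusted p = 0.0102), and Rxrg, an RXRA paralog, at -0.38 (unadjusted p = 0.0241), each with a limma adjusted p of 0.999. In the Dbp comparison 5 passed (23.8%, beside 12.9% of all genes). Ppargc1b (1.74-fold), a coactivator gene, and Foxo1 (1.40-fold), a forkhead factor gene, rose, while Nr0b2 (2.34-fold), which encodes the repressor SHP, Hsp90aa1 (1.99-fold), a chaperone of AHR and CAR complexes, and Rxrg (1.30-fold) fell.

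RXRA also pairs with other nuclear receptors, of which 11 of 12 were measured. Between genotypes 0 passed. Thra, a thyroid hormone receptor gene, at -0.26 (unadjusted p = 0.0280, adjusted p = 0.999 by limma), and Ppard, at -0.43, had the smallest p. With the Dbp level in the model Ppard was at -0.038, and leaving out each liver in turn gave -0.84 (without WT 2) to -0.11 (without WT 4). In the Dbp comparison 3 passed (27.3%, beside 12.9% of all genes), and these 3 had no overlap between the sets, as had 12.2% of all genes: Ppara (1.91-fold), the fatty acid sensor, rose, and Ppard (3.92-fold) and Nr1h3 (1.59-fold), which encodes the oxysterol receptor LXR alpha, fell.

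Although Por, the reductase that feeds electrons to microsomal cytochromes P450, was not analysed here, 21 of 22 genes of its acceptors and of parallel electron carriers were measured. Between genotypes 0 passed. The sterol synthesis genes Cyp51 (-0.57) and Sqle (-0.99) had the smallest p, with a limma adjusted p of 0.999 each, and were at -0.43 and -0.70 with the Dbp level in the model. Across the Dbp sets 5 passed (23.8%, beside 12.9% of all genes). Cyp7a1 (3.38-fold), of bile acid synthesis, and Cyp2e1 (1.15-fold) rose, and Sqle (2.76-fold), Dhcr7 (1.87-fold), another sterol synthesis gene, and Hmox2 (1.34-fold), a haem oxygenase gene, fell. That count was 1 without NML-KO 5, and 3 without WT 3, WT 4 or WT 5.

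Of 5 genes related to the epoxide hydrolases, 0 passed between genotypes, where Ephx3 (-0.12) and Mest (0.11) had the smallest p. Lta4h, which encodes leukotriene A4 hydrolase, was 1.36-fold lower in Dbp-high livers (adjusted p = 0.0167 by limma) with no overlap, and Mest was at -0.26 (adjusted p = 0.230 by limma). Ephx1 itself differed by 0.13 and overlapped.

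Clock and PAR bZIP genes, of which 18 of 20 were measured, defined the Dbp grouping through Dbp and are given as description. Of them, 15 passed between Dbp-high and Dbp-low livers (83.3%, beside 12.9% of all genes). The 15 include Dbp, whose call was fixed because its own value made the sets. Between genotypes 0 passed, and Per1 (0.72) and Noct (0.69) had the smallest p and were at 0.35 and 0.34 with the Dbp level in the model. Dbp differed by 3.43, Tef by 1.69 and Arntl by -2.39 on the log2 scale. Hlf, the remaining PAR bZIP gene, differed by 0.28 (adjusted p = 0.161 by limma). The Nr1i3 difference of 0.64 did not pass (adjusted p = 0.119 by limma). It was 0.12 without the livers lowest and highest in Nr1i3. Whether Nr1i3 follows the PAR bZIP genes was not tested.

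**Figure D4:**
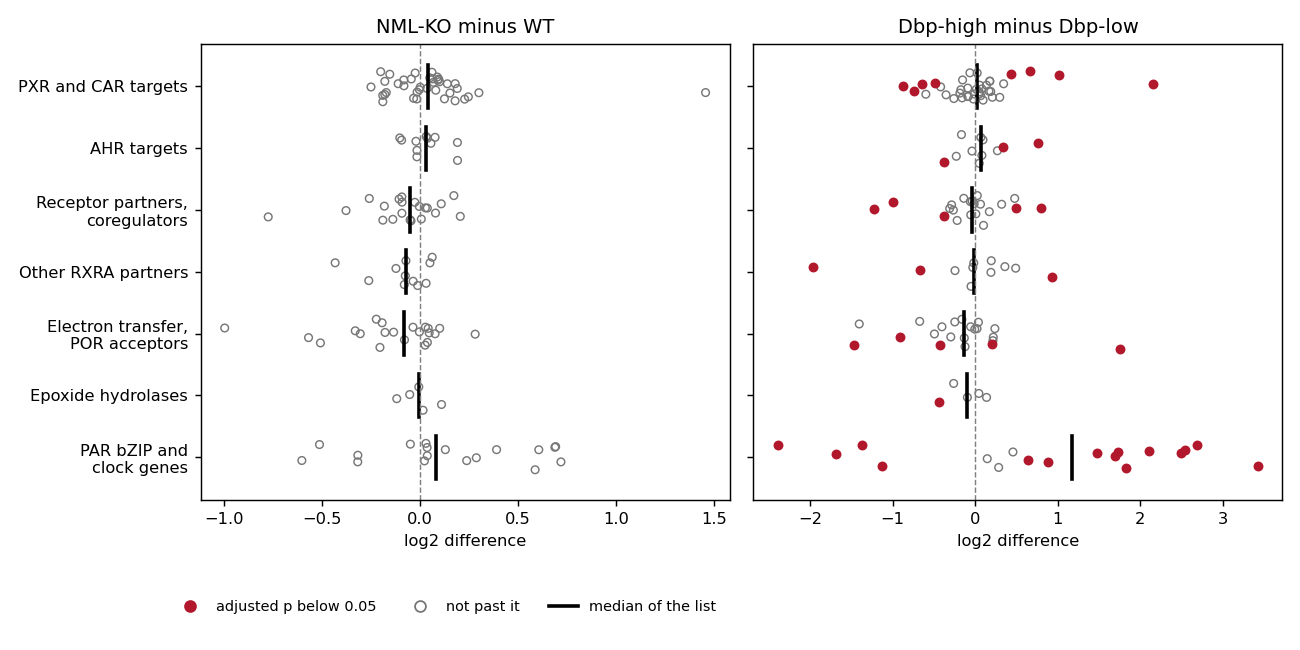
Log2 differences (horizontal axes) of single genes in lists of receptor targets and partners, for NML-KO minus WT (left) and Dbp-high minus Dbp-low (right), with a bar at each list's median and filled points for an adjusted p below 0.05. No gene is filled on the left, and on the right filled points lie on both sides of 0 in each list but the epoxide hydrolases, where the 1 filled gene is lower in Dbp-high livers.

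Other markers moved with the Dbp grouping, in which 12.9% of all genes passed, 4.92% higher and 7.99% lower, against 0% between genotypes. Of 10 macrophage markers, 4 passed, all lower in Dbp-high livers (median -0.63), against 0 of 10 between genotypes (median -0.11), and their mean level was 1.05 to 1.91 in Dbp-high livers and 1.69 to 2.45 in Dbp-low livers. Of 20 acute phase genes 9 passed, all lower in Dbp-high livers. Between genotypes 0 of 20 passed, with 17 above 0 and a median of 0.21, beside -0.0065 over all genes. This list was drawn up after the high values of NML-KO 4, a Dbp-low liver, had been seen. Both directions were partly set by that choice and are description only. Cebpd, which encodes a C/EBP factor, did not overlap between genotypes, where 0.406% of all genes had no overlap (log2 difference 0.26, adjusted p = 0.999 by limma). Of 7 hepatocyte markers 2 passed, both higher in Dbp-high livers, while 2 of the 7 lay below 0. With no overlap between the Dbp sets, 3 markers were higher and 1 was lower, where 12.2% of all genes had no overlap. The part of these in the differences between Dbp-high and Dbp-low livers was not tested, and in whole tissue fewer cells of a type cannot be told apart from less RNA per cell.

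The genes most like each of the 6 over the 10 livers were found by Pearson's correlation of log2 values, as a description of arrays that share normalization. They are the highest of 19935 genes over only 10 livers. High r values and shared extreme livers follow in part from that choice and test nothing. Rxra was followed most closely by Ntn1, a netrin gene, with r = 0.988, or 0.977 after the means of the 4 combinations of genotype and Dbp level were removed. Ntn1 measured 7.43 in WT 1 and 6.63 in WT 4, the livers where Rxra was highest and lowest. Arnt was followed by Ncoa1, a nuclear receptor coactivator gene (0.950), and Rab31 (0.940). Nr1i3 was followed by Wdr27 (0.961) and Slc25a20, the mitochondrial carnitine carrier gene (0.951).

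Slc25a20 measured 9.11 in NML-KO 4 and 9.73 in WT 1. Its lowest and highest livers were those of Nr1i3, which its choice by r favours. The SD of Wdr27 over the livers was 0.069, against 0.55 for Nr1i3, so that the likeness is not one of size. The nearest genes were 4921507P07Rik (0.937) and Dnaaf3 (0.917) for Nr1i2, and Samt2b (0.913) and Zbbx (0.901) for Ahr. The SD of Samt2b was 0.062 and that of Zbbx 0.022, against 0.19 for Ahr, so these likenesses are not of size either. Wdr27, 4921507P07Rik, Dnaaf3, Samt2b and Zbbx were dim, averaging 5.22, 5.18, 5.27, 4.59 and 4.47, below the median gene at 6.22. Next after Ntn1 for Rxra came C030034I22Rik (0.939), also dim at 5.29. Ephx1 had no gene as close, with Atp5c1 at 0.827 and Smim20 at 0.825.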

How the data were processed

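Per the labels' protocols, liver RNA was extracted with Sepazol and biotin-labelled with a whole-transcript terminal labelling kit. The authors deposited linear intensity values for 28815 probe sets on 10 arrays, from 18.4 to 29834, with array medians from 62.5 to 66.7. The submitters' processing notes give the build as mm8. How background was corrected and arrays were normalized is not given here, and residual background would shrink differences of dim genes.

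Intensities were taken to log2. Of the probe sets, 21780 had 1 gene symbol, 1605 several and 5430 none here; symbols were updated by gene ID (21689), and the brightest probe set was kept for the 998 genes with several. NML-KO was compared with WT, and Dbp-high with Dbp-low livers (threshold 8, genotype in the model), by limma 3.58.1 in R 4.3.3, Benjamini-Hochberg adjusted over 19935 genes. Named genes were the 6 measured genes, Rrp8, Dbp, the 2 genes of smallest p per list and comparison, and the 2 most correlated with each of the 6. The genes and lists were chosen with earlier results of these data known. Whether livers came from separate litters is not stated, so p-values measure the spread between these livers. The fits were tested on simulated data with known changes. Changes of 1.2-fold were recovered in 23.8% of genes between genotypes and 28.4% between Dbp levels, and 2-fold changes in 95% and 92.4%. The simulated genotype comparison held no difference between Dbp levels, so its recovery does not carry over to these livers. Alternatives covered scaling, dim genes, probe set choice, model terms and each liver left out.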

Additional observations from a re-analysis of the deposited data

Results flagged for a closer look

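In a group of 5, a value was singled out when its gap to the nearest other liver exceeded Dixon's 95% critical share of the group's range. Chance alone does this in about 1 group in 20, and 3 values stood out in 120 gene and genotype groups examined. Nr1i3 in WT 1, at 10.89, was far above the next WT liver at 10.04. Ephx1 in NML-KO 4, at 10.81, was far below the next NML-KO liver at 11.22. Slc46a3, an AHR target, was lowest of the WT group in WT 2 at 9.70, against 10.28 in the next. NML-KO 4 was the lowest of its group in Nr1i3 as well, at 8.67 against 9.76, a gap that did not reach that share.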

How the results depend on the processing

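Between genotypes, none of the 6 genes passed the threshold under any alternative, and leaving out each liver in turn gave 0 to 1 genes past it in all, the 1 being Rrp8 without NML-KO 4. Within Dbp-high livers the median difference of the 6 was -0.17, and Rxra (-0.18), Ppard (0.015), Mest (-0.012) and Per1 (-0.30) took the sign opposite to that over all livers. Within Dbp-low livers Nr1i2 (0.017), Ahr (-0.035), Arnt (0.086), Slc46a3 (-0.097) and Ephx3 (0.023) changed sign. Arnt was 0.035 with array weights and Rxra -0.013 with the Dbp level in the model. Among alternatives chosen after seeing the data, Rxra was -0.078 without NML-KO 4 and with the Dbp level in the model, Arnt 0.071 without NML-KO 4 within Dbp-low livers, and Nr1i3 0.034 without NML-KO 4 and WT 1. Leaving out each liver gave genotype differences from -0.13 to 0.015 for Nr1i2, -0.084 to 0.053 for Arnt, -0.044 to 0.12 for Rxra and -0.034 to 0.19 for Mest. Between Dbp-high and Dbp-low livers, quantile normalization put 1 of the 6 genes past the threshold (Rxra) and their median at 0.23; leaving out each liver gave 0 to 1 (Nr1i3 without WT 2). Genes past the threshold numbered 1143 at an adjusted p of 0.01, 256 within NML-KO livers, 1223 within WT livers, and 1625 (without NML-KO 5) to 2557 with each liver left out. Arnt was -0.094 within NML-KO livers, Ahr -0.018 within WT livers and -0.019 without NML-KO 4 and WT 1, and Arnt ran from -0.053 to 0.087 with each liver left out. Replicate numbers were not taken to pair the livers, since deviations of same-numbered livers correlated at 0.44, 0.26, -0.42, 0.35 and 0.54, and 1 of 5 NML-KO livers correlated best with its own number. With the replicate number as a block, 0 genes passed between genotypes and 2 between Dbp levels, with a median of 0.34 over the 6 genes and Ahr at -0.026. The cause of these changes was not tested, beyond the fewer livers in subsets. The number of arrays limits the precision, and background may compress dim genes.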
